A study of Mus musculus with 9 samples.

Results

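Accessible chromatin regions of mouse bone marrow were examined that ranked high in LT-HSCs (long-term haematopoietic stem cells) and lower in MPPs (multipotent progenitors), without being absent from the latter. Peaks of each library were ordered by the authors' −log10 q-value and then by their fold enrichment, and as many of the strongest peaks as the shortest list holds formed the top set of each library. Members were chosen by these ranks. A region was kept when it had a top-set peak in all 5 LT-HSC libraries and in none of the 4 MPP libraries, and overlapped a weaker peak of at least 1 MPP library. The rule gave 1317 member regions of 42133 regions merged from the 9 top sets, and of 118260 regions over all peaks. Another 153 regions were in every LT-HSC top set without any MPP peak, 1835 were ranked higher in MPPs and present in LT-HSCs by the mirror rule, and 9717 were in the top set of all 9 libraries. The ranks that separate LT-HSCs from MPPs chose the members, so nothing between the cell types was tested and those ranks are a description.

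The genotypes compared, both in C57BL/6 mice, were wild type (WT) and animals lacking the retinoid X receptors RXRα and RXRβ (KO). The groups were LT-HSC KO (3 libraries, numbered 1, 2 and 4), LT-HSC WT (2, numbered 2 and 3), MPP KO (2) and MPP WT (2). Cells came from lineage-depleted marrow of pooled animals and were sorted by flow cytometry. The labels give neither the age of the mice nor how the receptors were deleted. Whether each replicate was its own pool of animals is also not stated, and p-values therefore reflect spread between libraries that may be technical replicates.

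LT-HSCs are rare, mostly quiescent cells that can rebuild the blood system for life, and MPPs are their more proliferative descendants, which keep multilineage output but lose long-term self-renewal. In ATAC-seq the Tn5 transposase cuts accessible DNA, and a peak marks a place where cuts pile up, such as a promoter or an enhancer. Enhancers are often shared by neighbouring stages of a lineage and lose accessibility gradually as a cell matures. Retinoid X receptors are nuclear receptors that bind DNA in pairs with partners such as the retinoic acid, vitamin D and thyroid hormone receptors.

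The LT-HSC lists held up to 71586 peaks (43126 in KO 2, 50023 in WT 2 and 22878 in WT 3) and the MPP lists 78189 to 86353, and read depth is unknown for all of them. For LT-HSC KO 1 the top set is the whole list, down to a −log10 q of 1.37, whereas in the MPP libraries it ended between 42.8 and 55.1, so a rank is a position within a list and not a signal on a shared scale. Regions of 14 HSC marker genes were in the top set 28 to 44 times in LT-HSC libraries and 22 to 28 times in MPP libraries, while those of 5 MPP genes were there 7 to 9 times and 14 to 17 times. Markers of other cell types were not absent as lists. Top-set regions per library numbered 3 to 5 over 6 T cell genes and 3 to 5 over 6 B cell genes. Over 6 mature myeloid genes they numbered 4 to 13, and over 6 stromal and endothelial genes 7 to 12. Over the erythroid genes, of which 4 of 5 were in the gene reference used, they numbered 3 to 4. At 0 in every library were 3 of the T cell genes, Cd3e, Cd4 and Cd8a, and 3 of the B cell genes, Cd79a and Cd79b among them. The granulocyte gene Ly6g, the globin gene Hbb-b1 and the stromal gene Lepr were also at 0. The HSC marker Ly6a was also without one. Among regions of the targeted genes, Rxra had 27 and Rxrb 3, none of them a member, and all KO libraries but LT-HSC KO 1, which lacked any at Rxra, held peaks at both genes. Since the labels do not say which segments were removed, these peaks check no genotype.

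Members that covered a transcription start are shown by the sequence of their promoters, the part of the members for which reference sequence was used. Of the 1264 members on chromosomes with a promoter table, 153 overlapped 176 promoter windows of 160 symbols (RefSeq, GRCm38.p6, 250 bases before to 50 bases after the start). The 6 below are the strongest pair in LT-HSCs (Gm32865 and Clcn3), 2 with a GATA match (St7 and Cish), the window of a non-coding transcript inside Mxi1 (Gm30541), and Trpc6, whose gene had 4 members. Capitals mark matches to TGANTCA, the AP-1 site, and to GATAAG, the GATA site, as found by a search of both strands. Each line reads 5′ to 3′ along the strand of its gene.
Gm32865, chr16:87128390-87128689, minus strand: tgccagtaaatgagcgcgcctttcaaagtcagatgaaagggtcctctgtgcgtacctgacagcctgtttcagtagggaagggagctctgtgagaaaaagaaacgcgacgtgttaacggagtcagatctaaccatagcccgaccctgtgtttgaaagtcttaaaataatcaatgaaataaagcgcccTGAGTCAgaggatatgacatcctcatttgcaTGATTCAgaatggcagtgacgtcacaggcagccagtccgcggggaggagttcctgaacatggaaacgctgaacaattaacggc
Clcn3, chr8:60954750-60955049, minus strand: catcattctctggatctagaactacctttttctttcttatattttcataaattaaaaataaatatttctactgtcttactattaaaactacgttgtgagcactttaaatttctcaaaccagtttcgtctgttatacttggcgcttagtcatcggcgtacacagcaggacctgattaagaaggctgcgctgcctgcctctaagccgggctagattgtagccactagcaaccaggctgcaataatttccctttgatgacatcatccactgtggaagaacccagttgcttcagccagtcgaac
St7, chr6:17743342-17743641, plus strand: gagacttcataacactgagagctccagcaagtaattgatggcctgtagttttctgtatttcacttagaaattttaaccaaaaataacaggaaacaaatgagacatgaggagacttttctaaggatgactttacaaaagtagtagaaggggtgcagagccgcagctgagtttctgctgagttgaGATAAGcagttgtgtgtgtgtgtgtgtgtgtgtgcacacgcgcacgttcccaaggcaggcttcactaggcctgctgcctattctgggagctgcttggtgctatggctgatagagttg
Cish, chr9:107296409-107296708, plus strand: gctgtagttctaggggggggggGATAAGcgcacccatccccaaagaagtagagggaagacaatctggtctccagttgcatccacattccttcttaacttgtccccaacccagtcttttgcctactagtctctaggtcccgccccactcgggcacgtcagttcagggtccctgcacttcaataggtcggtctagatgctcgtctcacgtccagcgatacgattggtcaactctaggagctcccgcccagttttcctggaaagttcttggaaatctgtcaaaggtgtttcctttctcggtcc
Gm30541 (inside Mxi1), chr19:53325766-53326065, minus strand: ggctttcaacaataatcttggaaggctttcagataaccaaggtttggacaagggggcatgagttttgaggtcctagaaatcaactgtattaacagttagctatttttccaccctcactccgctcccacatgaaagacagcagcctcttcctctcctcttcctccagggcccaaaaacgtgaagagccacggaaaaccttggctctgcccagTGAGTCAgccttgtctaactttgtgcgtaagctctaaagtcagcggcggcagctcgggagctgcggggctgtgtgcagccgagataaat
Trpc6, chr9:8543892-8544191, plus strand: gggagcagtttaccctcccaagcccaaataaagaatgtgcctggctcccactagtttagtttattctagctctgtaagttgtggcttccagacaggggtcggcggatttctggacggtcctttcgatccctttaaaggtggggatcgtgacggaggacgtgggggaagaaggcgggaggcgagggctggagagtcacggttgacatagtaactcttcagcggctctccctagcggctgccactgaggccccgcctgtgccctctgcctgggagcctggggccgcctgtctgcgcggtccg

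The median LT-HSC summit lay 99 bases from the start at Gm32865, 25 at Clcn3, 61 at St7, 43 at Cish, 24 at Gm30541 and 38 at Trpc6. The Gm32865 window held 2 AP-1 matches and the Gm30541 window 1. St7, named as a suppressor of tumorigenicity, and Cish, which encodes a feedback inhibitor of cytokine signalling through STAT5, held 1 GATA match each. The windows of Clcn3 and Trpc6 held none of the 6 motifs searched, which says only that those letters are not in these windows.

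Over all 176 member windows, AP-1 letters (TGANTCA) occurred in 13.6% (95% Wilson interval 9.34% to 19.5%), against 3.99% of the 6990 windows in regions of the top set of all 9 libraries and 7.84% of all 31396 autosomal windows of the promoter table. GATA letters (GATAAG) occurred in 11.9% (7.94% to 17.5%), against 3.96% and 7.44%. ETS letters (CCGGAA) occurred in 18.8% of member windows, below the 35.0% of windows open in all 9 libraries and near the 15.1% of all windows. RUNX letters (TGTGGT) were in 18.2%, against 11.7% and 16.7%, the nuclear receptor hexamer AGGTCA in 10.2%, against 10.9% and 16.3%, and the E-box CACGTG in 7.95%, against 10.4% and 7.14%. None of the 6 motifs contains another, although matches may overlap at their ends. The median number of CpG dinucleotides was 11 in member windows, 23 in windows open in all 9 libraries and 7 in all windows, and the median GC content was 56%, 62% and 53%. In the 131 windows of the mirror set AP-1 letters were in 4.58% and GATA letters in 6.11%. These shares describe windows that differ in base composition, and they were not tested.

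In the LT-HSC lists the median rank of the members was 9907 (KO 1), 9164 (KO 2), 10263 (KO 4), 12109 (WT 2) and 13869 (WT 3), where rank 1 is the strongest peak. In the MPP lists it was 36025 (KO 1), 36815 (KO 2), 43863 (WT 1) and 43423 (WT 2), over the members each list held. The placement of members inside the LT-HSC top sets and outside the MPP top sets follows from the rule, but the gap between genotypes within each cell type does not.

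**Figure D1:**
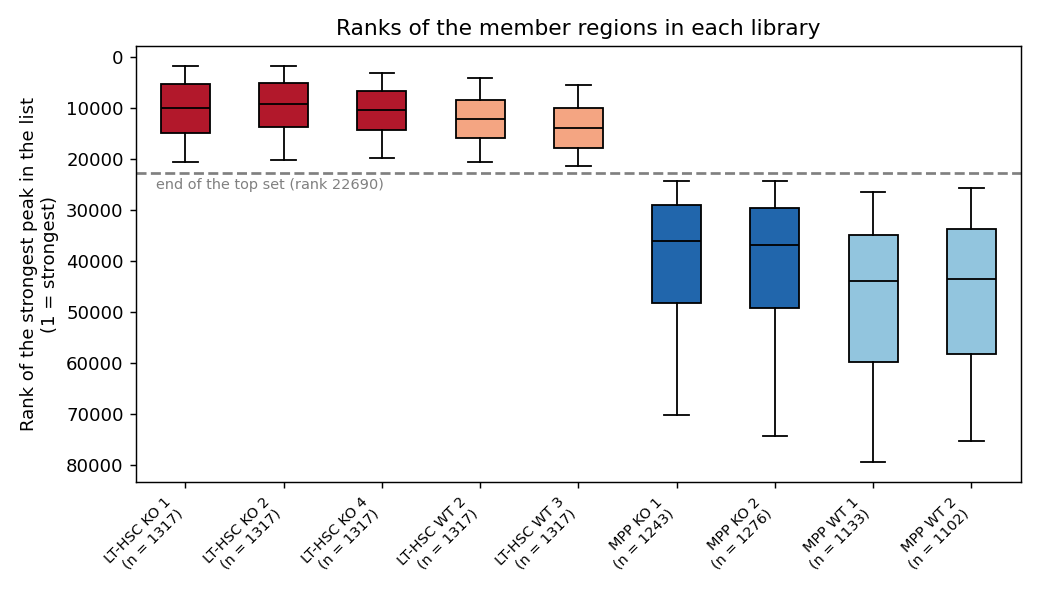
Ranks of the member regions in each of the 9 libraries (boxes, quartiles with the median; whiskers, percentiles 5 to 95; the axis runs downwards from the strongest peak, and n is the number of members with a peak in that list). The dashed line is the end of the top set, and the MPP KO medians of 36025 and 36815 lie above the MPP WT medians of 43863 and 43423.

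Near the threshold, 4 members were within 100 ranks inside the cut in an LT-HSC list and 8 within 100 ranks outside it in an MPP list, and none was tied with it. The 3 nearest to the cut inside it were assigned to Agfg2, Zscan25 and P2ry14, which encodes a receptor for UDP-sugars, with weakest LT-HSC ranks of 22626, 22632 and 22678. The 3 nearest outside it were assigned to Chrm3, Ptprh and Ttc8, with strongest MPP ranks of 22703, 22722 and 22723. On a normal-score scale of rank, the members nearest to their MPP positions were at Lclat1, Txlnb and Xcl1, and those farthest included Lnx1 and Gm52806.

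Peaks of a member stood at nearly the same position in both cell types, as did those of regions in general. The rule asks the MPP peak to overlap the region, which bounds this distance. The summit of the MPP peak lay a median of 20.5 bp from the LT-HSC summit, and in 1227 of 1317 members (93.2%) it lay within 100 bp. Over all regions with peaks in both cell types the median was also 20.5 bp, and 91.9% lay within 100 bp. The share was 95.1% of regions in the top set of all 9 libraries. The median member was 537 bp wide, compared with 686 bp for the regions shared by all 9 top sets and 488 bp for the mirror set.

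Most members lay away from gene ends. Within 1 kb of either end of a protein-coding gene were 184 members (14.0%, 95% Wilson interval 12.2% to 15.9%), inside a gene 613 (46.5%) and outside genes 520 (39.5%). The share at gene ends was 59.2% for regions in the top set of all 9 libraries, 27.6% for all top-set regions and 9.81% for the mirror set. It was 16.4% over all 118260 regions and 12.6% for other regions outside the MPP top sets. For the 153 regions without an MPP peak it was 6.54%. A position away from gene ends is thus not particular to the members. The median distance from a member's midpoint to the nearest annotated start was 20.01 kb. It was 0.254 kb for the regions of all 9 top sets, 14.8 kb for the mirror set and 16.0 kb over all regions. Ranked by fold enrichment first, the gene-end share was 20.5%.

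**Figure D2:**
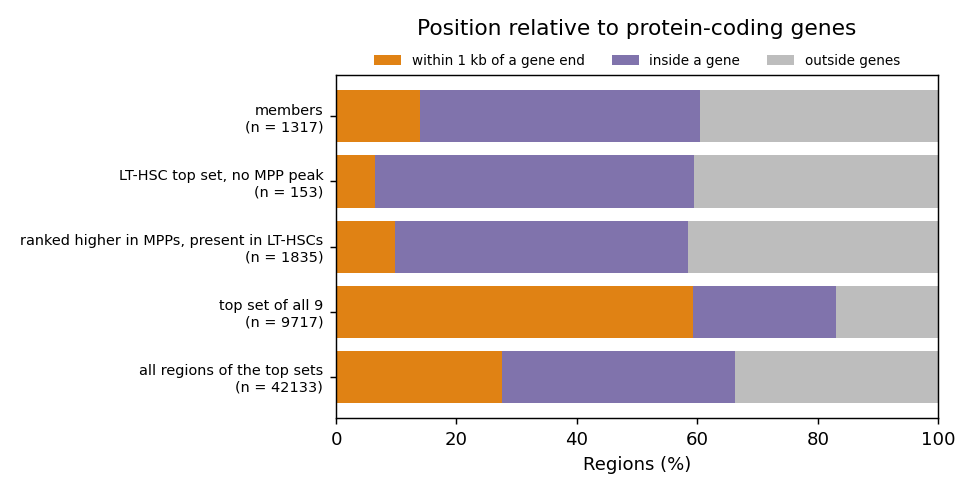
Share of regions within 1 kb of a gene end, inside a gene and outside genes (horizontal axis, percent of regions) for the members and 4 comparison sets, with the number of regions beside each bar. Gene ends make up 14.0% of members and 59.2% of the regions in the top set of all 9 libraries.

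Members were found on each of the 19 autosomes in the lists, from 1.796 per 100 top-set regions on chromosome 11 to 4.10 per 100 on chromosome 6. Another member lay within 100 kb of 264 of them (20.05%), and the median distance to the next member was 395 kb. A gene was assigned to 1183 members, 1072 genes in all, as the gene that holds the midpoint or has the nearest end within 100 kb. Of these genes 99 had 2 or more members and 10 had 3 or more.

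The strongest members, ordered by their rank in the weakest LT-HSC library, included several far up the LT-HSC lists. The first, chr5:20778272-20778996, lay inside the predicted gene Gm52806 and ranked 575, 548 and 1296 in LT-HSC KO 1, 2 and 4 and 1961 and 1581 in LT-HSC WT 2 and 3. In MPPs it ranked 49323 and 40911 in KO 1 and 2 and 73066 and 75146 in WT 1 and 2. All KO ranks were stronger than all WT ranks in both cell types, and the gap was widest in MPPs. The next, chr16:87128132-87128681, covered the promoter of the non-coding gene Gm32865 printed above and had no protein-coding gene within 100 kb. It ranked 178, 57 and 626 in the LT-HSC KO libraries and 1680 and 2035 in WT, whereas the MPP ranks of 26319 and 32717 (KO) and 33804 and 28775 (WT) overlapped.

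Clcn3, which encodes an endosomal chloride-proton exchanger, had its promoter in the member chr8:60954363-60955056. Its ranks were 400, 328 and 1461 in LT-HSC KO, 1708 and 2720 in LT-HSC WT, 22761 and 28069 in MPP KO and 39371 and 39579 in MPP WT. The first of the MPP KO values was close to the end of the top set, and the WT values were far below it.

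Also in this leading group, the member in Gypc, which encodes the red cell membrane protein glycophorin C, ranked 3230, 2785 and 1087 in LT-HSC KO and 1804 and 1325 in WT, and 43970 and 48568 in MPP KO against 59601 and 59234 in WT. The Slc22a3 member, in a gene for an organic cation transporter, ranked 2898, 1962 and 1349 in LT-HSC KO and 1710 and 2395 in WT, and its MPP WT ranks of 76188 and 38549 were far apart from each other. The member nearest Slc17a6, a vesicular glutamate transporter gene, ranked 350, 201 and 908 in LT-HSC KO and 4526 and 3813 in WT, and MPP WT 2 held no peak there.

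Trpc6, the gene of a diacylglycerol-gated calcium channel, and Tenm4, the gene of a teneurin adhesion protein, had 4 members each. The Trpc6 members spanned 57.9 kb, from 56.1 kb before the start to the start of the gene body. The member inside the gene, chr9:8545225-8545686, ranked 459, 609 and 1536 in LT-HSC KO, 1784 and 2437 in WT, 31000 and 44373 in MPP KO and 56927 and 62796 in MPP WT. The promoter member, chr9:8543946-8544329, was weaker in LT-HSCs (ranks 9136 to 16974) and closer to the top set in MPPs (25816 and 26145 in KO, 30560 and 32076 in WT). The distal pair ranked 3512 to 7583 and 786 to 10833 in LT-HSCs, so the promoter was the weakest of the 4 sites there and the strongest in MPPs. In each of the 3 Trpc6 members with a peak in all 4 equally long MPP lists, both KO libraries ranked ahead of both WT libraries.

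The Tenm4 members ranked 1533 to 22137 in LT-HSCs. The strongest of their ranks came from the member chr7:96152873-96153460, 18.1 kb from the Tenm4 start, with 2102, 1533 and 9050 in LT-HSC KO and 14089 and 22137 in WT. Its MPP ranks of 38519 and 53652 in KO and 38577 and 31575 in WT overlapped. Genes with 3 members were Bcl11a, Elmo1, Nfia, Ptpn14, Slc8a1, Klf12, Lclat1 and Gli2. Bcl11a encodes a zinc finger repressor needed for lymphoid development and fetal globin silencing, Elmo1 a regulator of Rac and cell migration, and Gli2 a transcription factor of Hedgehog signalling. Among the Klf12 members, chr14:100260479-100261006, ranked 8054, 11138 and 10845 in LT-HSC KO and 19281 and 18324 in WT, and 43060 and 53172 in MPP KO against 76001 and 74519 in MPP WT.

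The 3 Bcl11a members lay within 97.2 kb. The member inside the gene, chr11:24139328-24139931, ranked 3668, 2429 and 2344 in LT-HSC KO and 5426 and 5213 in WT, with 32251 and 26124 in MPP KO and 40127 and 36139 in MPP WT. The member upstream of it, chr11:24065326-24065716, ranked 32208 and 39002 in MPP KO and 49420 and 55695 in MPP WT, and that at chr11:24162050-24162504 ranked 59324 and 52985 in KO and 82136 and 74189 in WT. All 3 had both KO libraries ahead in MPPs, although the last lay beyond the equal list length in WT 1 and was not among the regions compared.

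The Gli2 and Lclat1 members behaved differently. At Gli2 the genotypes overlapped in MPPs at all 3 members, and at chr1:119033710-119034334 the 4 MPP ranks lay between 25625 and 27619. At Lclat1 the member chr17:73226552-73226980 ranked 25197 and 25666 in MPP KO and 28163 and 24099 in WT, next to the end of the top set. At Slc8a1, the gene of the cardiac sodium-calcium exchanger, 2 of 3 members were compared, and both had KO ahead, with chr17:81618427-81618869 at 22960 and 23471 in KO and 37832 and 32284 in WT. The Elmo1 member chr13:20256616-20256988 was held by KO 1 and WT 2 alone, and the Nfia member chr4:98189913-98190421 by both KO and no WT library.

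Promoter members further down the LT-HSC order included genes of blood and vessel cells, which were chosen for their known roles after the values were seen. At Gucy1b1, which encodes a subunit of the nitric oxide receptor guanylate cyclase, the ranks were 1128, 864 and 4919 in LT-HSC KO, 3093 and 6194 in LT-HSC WT, 23688 and 24931 in MPP KO and 27683 and 24942 in MPP WT. The MPP ranks were close to the top set in all 4 libraries. At Cavin2, a caveola gene, only MPP KO 1 had a peak (rank 75829), while the LT-HSC ranks were 1803, 1790 and 7736 in KO and 9774 and 8815 in WT. At St7 both KO libraries (41848 and 41684) and no WT library of the MPPs had a peak. At Cish the MPP ranks were 30035 and 28610 in KO and 28656 and 23034 in WT, overlapping with WT 2 the strongest.

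Among genes of HSC identity, 6 of 30 had 8 members, which were 4.85% of the list's 165 top-set regions, against 3.0% over all genes. Lmo2, a scaffold of the stem cell GATA and TAL1 complexes, had a member at the promoter of the non-coding gene Gm39895, chr2:103893726-103894192. It ranked 9546, 4990 and 10636 in LT-HSC KO and 8435 and 5990 in WT, with 52714 and 62660 in MPP KO and 64570 and 75757 in MPP WT.

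Other genes of that list, outside the naming rule and added after their values were seen, were Mecom, Erg and Hlf, each encoding a transcription factor of HSC maintenance. The Mecom member ranked 5848 to 17372 in LT-HSCs and 30822 and 35474 in MPP KO against 38088 and 38446 in WT. The Erg member ranked 1766 to 18676 in LT-HSCs and 26574 and 37246 in MPP KO against 42147 and 37853 in WT. The Hlf member ran the other way in presence, with a peak in both MPP WT libraries (78305 and 79925) and in neither KO library. Hlf thus held the only member of the 1317 that both WT and no KO MPP library held. Both ranks were near the ends of the WT lists, which held 85471 and 80451 peaks. They also lay beyond the 78189 peaks of the MPP KO 1 list, where no peak can have such a rank. The KO 2 list, with 86353 peaks, was longer.

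Among RXR partners and targets, 6 of 30 genes had 7 members (5.47% of the list's 128 top-set regions). Rarb, encoding retinoic acid receptor beta and itself a classical retinoic acid target, had 2 inside the gene. The member chr14:16605447-16605870 ranked 2477, 3192 and 8694 in LT-HSC KO and 16483 and 13974 in WT, with MPP ranks of 51231 and 48994 in KO and 65887 and 51166 in WT. The other, chr14:16555140-16555455, was near the end of the top set in every LT-HSC library (16801 to 22027) and ranked 27218 and 34050 in MPP KO and 34340 and 38933 in WT. Dhrs3, a retinaldehyde reductase that limits retinoic acid synthesis, had a member inside the gene, chr4:144898241-144898720. It ranked 1065, 1586 and 3149 in LT-HSC KO and 1233 and 3695 in WT, values that overlap, and 37662 and 38905 in MPP KO against 49020 and 51868 in WT, values that do not.

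The third retinoid X receptor gene, Rxrg, was the nearest gene to a member whose genotypes overlapped in both cell types (24193 to 30258 in MPPs). Nr4a2, an orphan receptor and RXR partner linked to HSC quiescence, held a member with LT-HSC ranks of 4685, 5781 and 8268 in KO and 12448 and 16597 in WT, and with overlapping MPP ranks. Thrb, the thyroid hormone receptor beta gene, ranked 34228 and 43768 in MPP KO and 51348 and 55857 in MPP WT. At Vdr, the vitamin D receptor gene, only MPP KO 1 had a peak, at rank 64932. Thrb and Vdr were added after their values were seen.

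**Figure D3:**
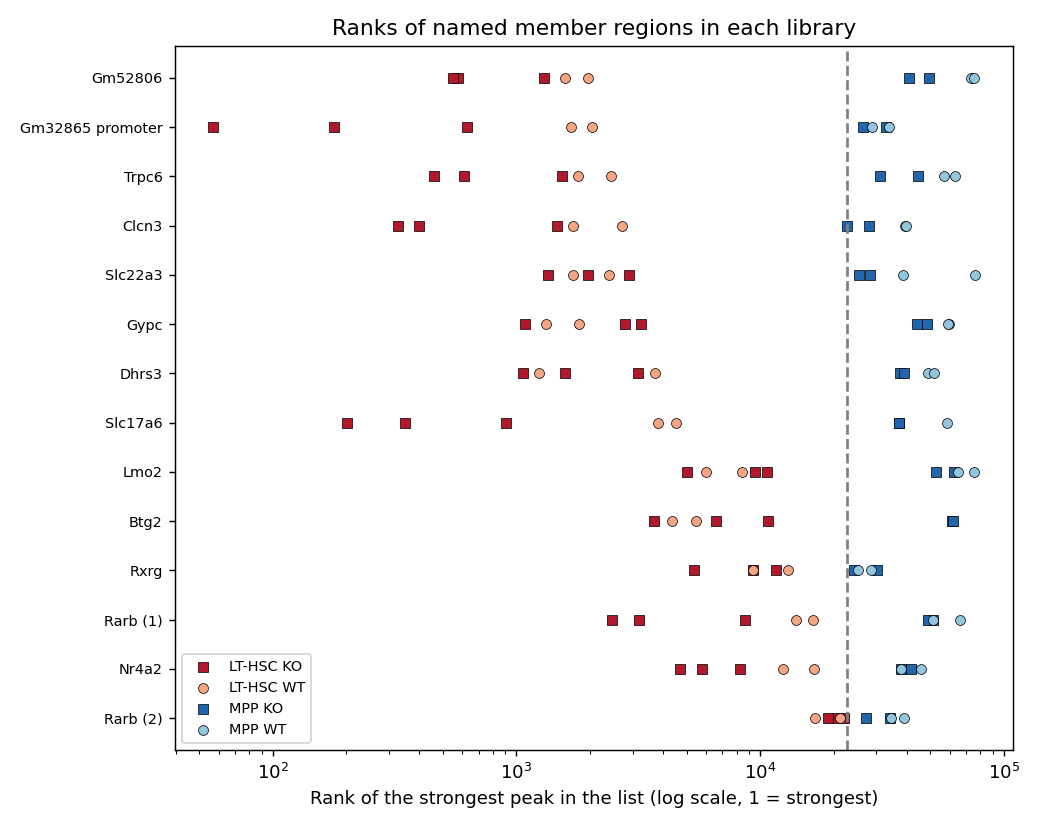
Ranks in each library (horizontal log axis, 1 is the strongest) of 8 leading members and of members named from the HSC identity, quiescence and RXR lists. Squares are KO and circles WT libraries, red tones LT-HSCs and blue tones MPPs, and a missing point means no peak in that list. The dashed line marks the end of the top set, to the left of which lie all LT-HSC ranks by the rule, and at Gm52806 the MPP KO ranks (40911 and 49323) precede the WT ranks (73066 and 75146).

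Few members fell on the other lists. Adhesion and niche genes had 4 of 25 with a member. These were Cxcr4, the receptor that retains stem cells in the marrow, Fzd8, a Wnt receptor gene, Jam3, a junctional adhesion gene, and Cd44, a hyaluronan receptor gene that lies outside the naming rule. At Cxcr4 the MPP ranks were 24323 and 23508 in KO and 25143 and 24411 in WT, close to the end of the top set and close to each other. At Cd44 they were 41928 and 35914 in KO and 56658 and 66327 in WT. The niche ligand gene Cxcl12, counted among stromal markers, had 1 member with overlapping genotypes.

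Lymphoid priming genes had 2 of 18 with members, Bcl11a and Ebf1, the latter a B cell transcription factor gene whose member was held by MPP KO 1, KO 2 and WT 1. Megakaryocyte and erythroid genes had 3 of the 22 in the gene reference, Zfpm1 (the GATA1 cofactor FOG1), Selp (P-selectin) and Gp9 (a platelet glycoprotein). The Gp9 member ranked 29639 and 29258 in MPP KO and 48341 and 44904 in WT. Cell cycle genes had 2 of 25. The Cdk6 member, in the gene of a kinase that drives exit from quiescence, ranked 39428 and 36059 in MPP KO and 27624 and 24068 in WT, with WT ahead. The Ccne1 member, near the cyclin E1 gene, was held in MPPs by WT 2 alone.

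AP-1 and immediate early genes had 3 of 21 with members. These were Bach2 (a lymphoid repressor), Btg2 (an antiproliferative gene) and Fosb. The Btg2 member was held by both MPP KO libraries (61315 and 61836) and by neither WT library. The MYC list had 1 of 22, Mxi1, a MYC antagonist, whose MPP ranks overlapped (50476 and 58865 in KO, 39820 and 57050 in WT). Myeloid priming had 1 of 18 (Irf8) and interferon and inflammation 1 of 18 (Tnfrsf1b, a TNF receptor). Mature myeloid and erythroid marker genes had none, T cell markers had Cd28, and the neuronal and hepatic control had 3 of 14, Nrxn3, Gad1 and Snap25. Members were 6.12% of the control list's top-set regions, compared with 4.85% for the HSC identity and 5.47% for the RXR list.

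Of the 1317 members, 7 lay within 5 kb of, or over, a microRNA hairpin. The mature sequences of 2 of these with named roles in blood cells are given with the seed (bases 2 to 8) in capitals, from RefSeq.
mmu-miR-130a-3p: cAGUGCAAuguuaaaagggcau
mmu-miR-342-3p: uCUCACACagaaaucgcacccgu
The Mir130a hairpin (chr2:84741115-84741178) lay 2396 bp from the member chr2:84743574-84744015, assigned to Ypel4. It ranked 10430, 5236 and 9864 in LT-HSC KO, 12971 and 16636 in WT, 39522 and 41698 in MPP KO and 48418 and 50502 in MPP WT, with no overlap between genotypes in either cell type. The Mir342 hairpin lay 4633 bp from a member inside Evl, an actin regulator gene, with LT-HSC ranks of 8217, 8658 and 10714 in KO and 19572 and 16055 in WT and overlapping MPP ranks. A hairpin near a region does not show that the region acts on it. These members were chosen for their neighbours after the data were seen.

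The KO libraries held members more often than the WT libraries among MPPs. MPP KO 1 and KO 2 had a peak at 1243 and 1276 members and WT 1 and WT 2 at 1133 and 1102, although the list of WT 1 was longer than that of KO 1. All 4 libraries held 1038 members, 3 held 115, 2 held 93 and 1 held 71. More KO than WT libraries held 236 members (17.9%) and more WT than KO libraries 22 (1.67%), while over all 100699 regions with an MPP peak these shares were 14.7% and 16.1%. Both KO libraries and no WT library held 71 members (5.39%), against 2.30% of all regions. The presence of some MPP peak was part of the rule, but which genotype it came from was not.

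The question the genotype comparison addresses is how loss of the receptors changes accessible chromatin, and the rule used no genotype label. Each MPP list was cut to 78189 peaks, as many as the shortest of them holds, and 993 members had a peak in all 4. Both KO libraries ranked ahead of both WT libraries in 551 of the 993 (55.5%), against a background of 23.9% over the 61203 regions compared, and both WT ahead of both KO in 46 (4.63%), against 23.4%. Among the 33514 other regions outside the MPP top sets the shares were 21.97% and 22.8%, among regions in the top set of all 9 libraries 27.7% and 16.9%, and among the mirror set 15.8% and 34.2%. Members therefore stood mostly ahead in KO MPPs, where the regions ranked higher in MPPs stood more often ahead in WT. In 4 groups of members of nearly equal size by mean MPP rank, from the strongest to the weakest, the share with KO ahead was 39.8%, 58.5%, 57.7% and 66.1%, against 21.0%, 22.6%, 22.3% and 21.9% for other regions outside the MPP top sets in the same ranges.

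**Figure D4:**
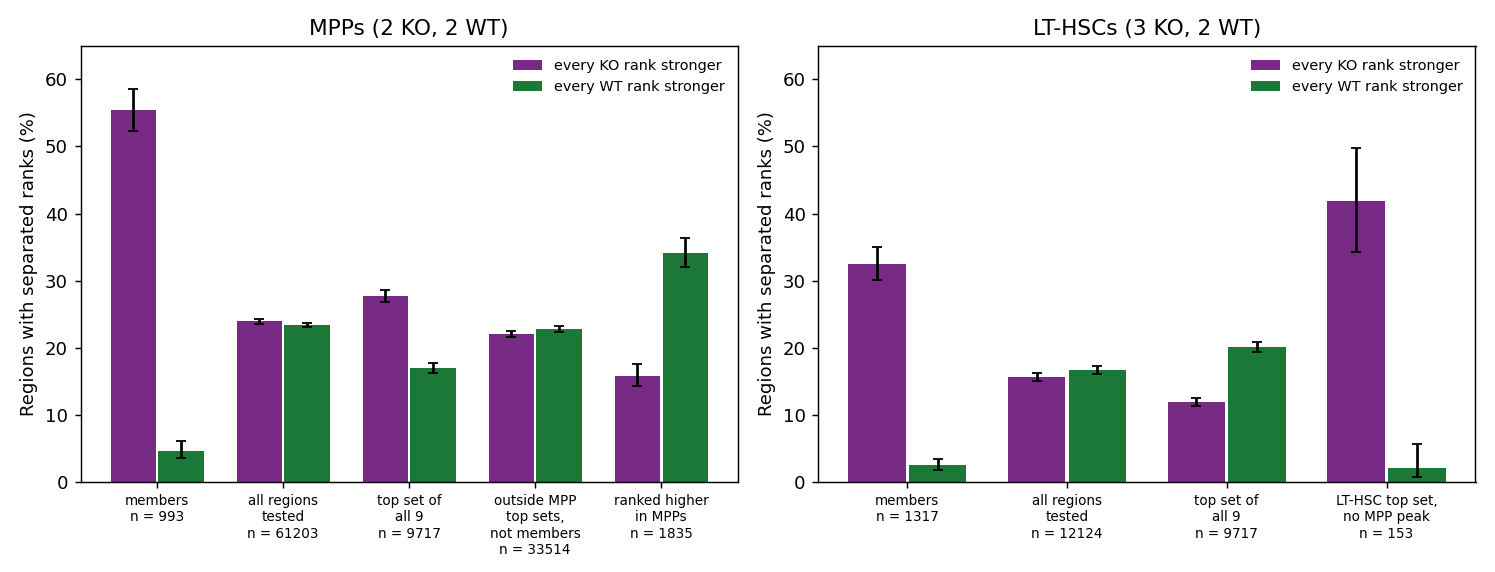
Percent of regions in which every KO rank is stronger than every WT rank (purple) or the reverse (green), in MPPs (left) and LT-HSCs (right), for the members and comparison sets (n, regions compared; error bars, 95% Wilson intervals, which cover counting error only). Members have KO ahead in 55.5% in MPPs and 32.5% in LT-HSCs, and WT ahead in 4.63% and 2.43%.

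In limma on normal scores of rank, no region passed an adjusted p under 0.05 in MPPs, neither among the members nor over all regions (0% called in either direction). The smallest adjusted p (Benjamini-Hochberg, limma) of a member was 0.24. At an unadjusted p under 0.05, 306 members were stronger in KO (background 6.79%) and 11 stronger in WT (background 6.8%), that is 30.8% and 1.11% of the members tested. The median KO minus WT difference was 0.31 normal-score units over members and 0.00 over all regions, and 821 of 993 members were above 0. A limma fit with a trend of variance over rank called 74 members in KO and 2 in WT, against 1.9% and 1.84% of all regions. These counts are relative to other regions of the same lists, since ranks carry no total.

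**Figure D5:**
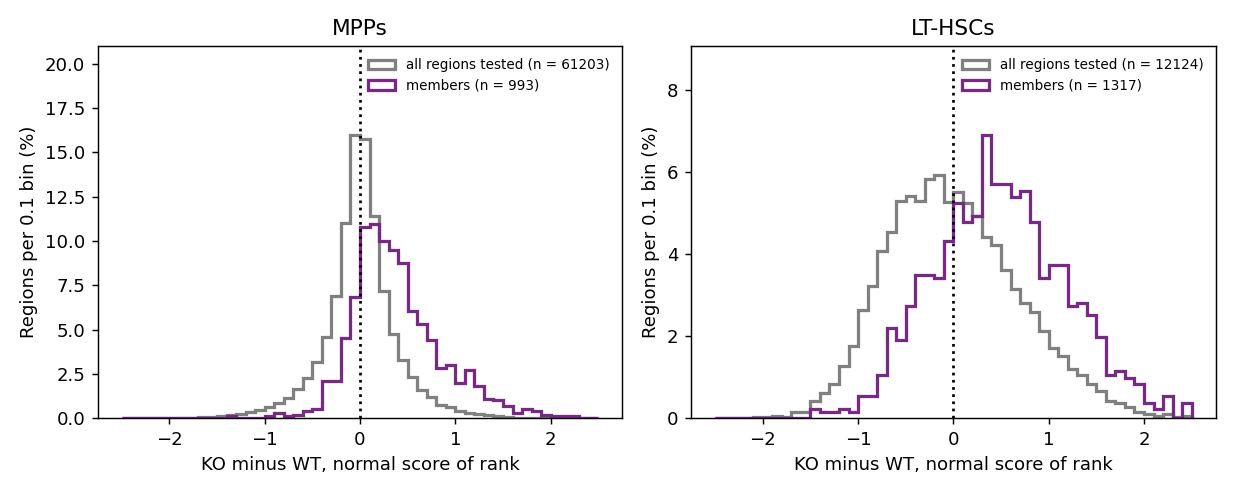
Distribution of the KO minus WT difference in normal score of rank (horizontal axis) as percent of regions per bin of 0.1, for all regions tested (grey) and members (purple), in MPPs (left) and LT-HSCs (right). The outermost bins include values beyond the axis, the dotted line is 0, and the members' median is 0.31 in MPPs and 0.46 in LT-HSCs, against 0.00 and −0.06 over all regions.

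More members had KO than WT ahead without any 1 MPP library, but this was fixed in advance. The 551 members with KO ahead over all 4 libraries stay so without any 1, and they outnumber the rest of those compared. These counts are therefore no check of the order. Members with KO ahead were 675 of 998 without KO 1, 680 of 998 without KO 2, 717 of 1049 without WT 1 and 726 of 1045 without WT 2 (67.6% to 69.5%, against 36.7% to 37.6% of all regions), and members with WT ahead 102, 132, 135 and 109 (10.2% to 13.2%, against 35.5% to 37.3%). Fewer libraries separate more easily, which moves members and background alike. In the 40000 strongest peaks of each list, which hold 330 members, the counts were 134 (40.6%, against 24.3% of all regions) and 20 (6.06%, against 23.6%). In limma without KO 1 and without KO 2, the median KO minus WT difference over members was 0.31 and 0.33 normal-score units. Over all regions it was 0.010 and 0.006. Without WT 1 and without WT 2 it was 0.29 and 0.30 over members, against −0.002 and −0.005 over all regions. These fits leave 1 library in a genotype. At an unadjusted p under 0.05, limma on the 40000-peak lists gave 71 members in KO (21.5%, against 7.64% of all regions). In WT it gave 9 (2.73%, against 7.34%). Top-set regions of the 14 HSC marker genes numbered 27 and 28 in MPP KO and 26 and 22 in MPP WT, those of the 5 MPP genes 14 and 14 against 17 and 16, and those of 6 mature myeloid genes 10 and 12 against 13 and 13. Of the HSC marker regions with a rank in all 4 MPP lists, 25 of 76 were ahead in KO and 11 in WT, against 23.9% and 23.4% of all regions. Of the MPP gene regions 7 of 30 were ahead in KO and 7 in WT, and of the mature myeloid regions 2 of 28 and 12. These counts differed between genotypes, and their part in the result was not tested. In bulk samples a change in the share of a cell type and a change within each cell cannot be told apart.

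By smallest p, the members with KO ahead in MPPs were at Rgs2, Vps36 and Shroom3. The Rgs2 member, chr1:144018374-144019093, lay 14.6 kb from this gene of a G protein signalling inhibitor and ranked 36772 and 37955 in KO and 75430 and 74007 in WT. The KO values differed from each other far less than from the WT values, a difference of 2.14 ± 0.13 (SE) with a limma adjusted p = 0.24. The Vps36 member, in a gene of the ESCRT-II sorting complex, ranked 40329 and 39122 in KO and 70708 and 69903 in WT. The Shroom3 member, in a gene shaping epithelial cells through actin, ranked 49347 and 47460 in KO and 73118 and 72535 in WT. In LT-HSCs the genotypes overlapped at Rgs2 and Shroom3, and at Vps36 all KO ranks (1428 to 2415) were ahead of the WT ranks (3227 and 6123).

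In the other direction the members with the smallest p were at Deptor, Smap2 and Dcbld1. The Deptor member, in the gene of an inhibitor of mTOR kinase, ranked 48975 and 49036 in KO and 30485 and 27318 in WT, with a difference of −0.84 ± 0.11 (SE, limma adjusted p = 0.24). The Smap2 member ranked 53042 and 54682 in KO and 36202 and 42520 in WT, and the Dcbld1 member 66029 and 60476 in KO and 51200 and 45260 in WT. At these 3 the LT-HSC genotypes overlapped.

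Within LT-HSCs the members also stood ahead in KO. All 3 KO libraries ranked ahead of both WT libraries in 428 of 1317 members (32.5%), against a background of 15.6% over the 12124 regions in the top set of all 5, and both WT ahead of all KO in 32 (2.43%), against 16.6%. In the 9717 regions in the top set of all 9 libraries the shares were 11.9% and 20.1%, and in the 153 regions without an MPP peak 41.8% and 1.96%. No region passed an adjusted p under 0.05 in limma (0% called in either direction). At unadjusted p under 0.05, 288 members were stronger in KO (background 8.03%) and 3 in WT (background 4.62%). The median difference was 0.46 over members and −0.06 over all regions.

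Single libraries mattered more here. Without LT-HSC KO 4, limma called 357 members stronger in KO (background 13.5%) and 49 stronger in WT (background 11.4%) at adjusted p under 0.05, and 649 and 207 members had ranks that did not overlap (49.3% and 15.7%, against 31.1% and 37.0% of all regions). Without KO 1, KO 2, WT 2 and WT 3, KO was ahead in 518, 480, 689 and 509 members and WT in 54, 55, 86 and 125. With KO ahead these were 39.3%, 36.4%, 52.3% and 38.6% of members, against 18.4%, 17.1%, 26.0% and 24.8% of all regions. With WT ahead they were 4.10%, 4.18%, 6.53% and 9.49%, against 20.9%, 19.9%, 27.5% and 23.9%. The 428 members with KO ahead over all 5 libraries stay so without any 1, so their share could not fall below 32.5%. In each of these 5 settings the share of all regions with KO ahead was lower than that. The share of members with KO ahead is therefore no check of the order. The share with WT ahead was not fixed in this way, and it was below that of all regions in each setting. With limma, 0 members were called without any of the other 4 libraries, where the unadjusted counts in KO were 170 (without KO 1), 140 (without KO 2), 173 (without WT 2) and 93 (without WT 3). These were 12.9%, 10.6%, 13.1% and 7.06% of members, against 3.93%, 3.06%, 4.26% and 2.14% of all regions. The LT-HSC lists differed in length, and the gene-end share of top-set regions was 36.02% to 37.8% in KO and 39.5% to 41.2% in WT. The part of either in this result was not tested.

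The members with the smallest p in LT-HSCs were at Gm46911, Tnfrsf8 and Nova1 with KO ahead. The Nova1 member, near the start of a neuronal splicing factor gene, ranked 1013, 1216 and 8840 in KO and 17841 and 20413 in WT, a difference of 2.62 ± 0.54 (SE, limma adjusted p = 0.37). The Gm46911 member ranked 4270, 3961 and 7972 in KO and 18643 and 21453 in WT. The Tnfrsf8 member, near the gene of CD30, ranked 5818, 2861 and 8956 in KO and 17570 and 21796 in WT. KO 4 was the weakest KO library at all 3. With WT ahead the smallest p were at Hivep3, Pabpc1 and Pygm. At Pygm, the gene of muscle glycogen phosphorylase, the KO ranks of 19565, 20723 and 4711 spread across the WT ranks of 3728 and 5339.

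The 2 cell types can be set side by side in the 993 members compared in both, since no library is shared. The KO minus WT difference was above 0 in both cell types for 608 and below 0 in both for 36, against 3479 and 2768 of the 11647 regions compared in both fits. KO was ahead without overlap in both cell types in 165 of the 993 members and WT in none, against 754 and 435 of the 11647 regions. Members leaned towards KO within each cell type on its own, which by itself gives many such shared cases. The counts are therefore not read as agreement between the cell types. Across members the 2 differences were nearly unrelated in size, with a Pearson correlation of −0.04 and a Spearman correlation of −0.05 (993 members that share their libraries), against 0.16 and 0.15 over all regions.

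More members had KO than WT ahead in MPPs in each class of position. KO was ahead in 77 of 167 members at gene ends (46.1%), 271 of 460 inside genes (58.9%) and 203 of 366 outside genes (55.5%). WT was ahead in 8, 25 and 13 (4.79%, 5.43% and 3.55%). Over all regions compared, of any position, the shares were 23.9% and 23.4%. These were not taken by class over all regions, so the classes are not set against each other. Of the 37 members on the gene lists, 29 were compared in MPPs, and KO was ahead in 19 and WT in 1, the Cdk6 member. KO was ahead in 5 of 6 compared members of the HSC identity list, 3 of 6 of the RXR list and 4 of 4 of the adhesion list. In the control list it was ahead in 2 of 3. No list is set apart from the other members by these counts.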

How the data were processed

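ATAC-seq peaks were measured in 9 libraries. The authors deposited a peak list for each library. The submitters' processing notes name MACS2 2.1.1, mm10, Bowtie2, cutadapt 1.7 and SAMtools 0.1.18, with no roles or settings. Deposited values were a fold enrichment (ratio), the −log10 of the p-value and q-value, a display score, and start, end and summit. Tn5 shifting and duplicate filtering are not stated, and read depth is unknown, so precision is limited by the number of libraries.

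Ranks (ties averaged) used the −log10 q, then the fold. Peaks overlapping by at least 1 bp were merged. A region took its strongest peak per library. For genotype, ranks were ranked again over the regions tested, turned into normal scores and fitted with limma 3.58.1 (R 4.3.3), with Benjamini-Hochberg adjustment over all 61203 (MPP) or 12124 (LT-HSC) regions, and a call at adjusted p under 0.05. MPP regions needed a peak in all 4 lists cut to 78189, so 324 members were not tested. On simulated data, 200 regions shifted by 3 score units were recovered in 59.5% (MPP) and 74.5% (LT-HSC), and by 1 unit in 0% of both.

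Genes were RefSeq protein-coding genes (GRCm38.p6, the same primary assembly as mm10). Members and gene lists were chosen with earlier results of these data known, so no count here is independent support. Named members are the 10 strongest in their weakest LT-HSC library, the 10 genes with most members, up to 3 genes per list, the 3 smallest p per direction and fit, the 3 on each side of the threshold, and the 3 nearest to and farthest from their MPP ranks. The HSC quiescence list had 2 of 26 genes with members, Btg2 and Nr4a2, and the B cell list had Ebf1. The Wilson intervals cover counting error only. Promoter windows on chromosome 18, which has 53 members, and sequence of regions away from promoters were not used here. A few members that the rule names are not reported here.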

Additional observations from a re-analysis of the deposited data

Results flagged for a closer look

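Groups of 2 or 3 libraries are too small for a check of single libraries that stand apart. In 28 members the genotypes separated in opposite directions in the 2 cell types, 14 with KO ahead in MPPs and WT ahead in LT-HSCs and 14 the reverse, and these differences between cell types were not tested. Each direction held 1.41% of the 993 members compared in both cell types, against 3.05% and 1.503% of all 11647 such regions. Named members of this kind, all with KO ahead in MPPs, were at Fosb, an AP-1 gene (KO minus WT 0.83 in MPPs and −0.32 in LT-HSCs, in normal-score units of rank), Hivep3 (0.30 and −1.35), Pabpc1, the gene of a poly(A) binding protein (0.74 and −1.08), and Agfg2 (1.11 and −1.21). The Fosb member ranked 31163 and 29551 in MPP KO and 45626 and 54757 in MPP WT, and 11480, 11922 and 9879 in LT-HSC KO and 7978 and 8833 in WT. The Agfg2 member ranked 35950 and 34094 in MPP KO and 56839 and 63173 in MPP WT, and 22626, 19675 and 14776 in LT-HSC KO and 12666 and 12638 in WT.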

How the results depend on the processing

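Member counts stayed within 1.5 times of 1317 under each setting tried, from 883 with top sets of 15000 peaks to 1364 ranked by fold first, and 1326 to 1737 without any 1 library. The regions themselves were less stable: 34.4% of the members overlapped a member of the 15000-peak setting and 64.5% of that ranked by fold, where the gene-end share was 20.5%. In MPPs, minus log2 of rank called 21 regions in KO and 20 in WT, none a member, and the trend fit 1165 and 1127, of which 74 and 2 were members. Without a single library the MPP calls were 0 in both directions, and non-overlapping members numbered 675 to 726 with KO ahead and 102 to 135 with WT ahead. In lists of 40000 peaks these were 134 and 20. In LT-HSCs, fold ranking called 1 region in KO. Of the 1181 members it compared, KO was ahead in 356 (30.1%, against 13.1% of all regions) and WT in 66 (5.59%, against 18.5%). Without 1 library, calls in LT-HSCs ranged from 0 to 1639 (KO) and 0 to 1383 (WT) over all regions and from 0 to 357 and 0 to 49 over members, and non-overlapping members from 480 to 689 (KO) and 54 to 207 (WT). Some of these settings leave fewer libraries or regions. The cause of the changes was not tested. Leave-one-out counts of non-overlap, and fold ranking of it in LT-HSCs, were chosen after seeing the data. Of 12 members named for their genotype difference, each kept its direction in each fit that tested it. They were picked for that difference from the same data. All but the Pygm member had KO and WT ranks without overlap, which leaving out a library cannot reverse. Their steady direction was therefore largely fixed in advance and is not support.

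With the replicate number as a block, limma called 0 members in MPPs. At an unadjusted p under 0.05 it gave 288 members in KO (29.0%, against 6.14% of all regions). In WT it gave 10 (1.01%, against 6.10%). The numbers did not pair the libraries (correlation of deviations −0.02). LT-HSC WT libraries share only number 2 with KO, so no block was fitted there.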
